A study of Mus musculus with 7 samples.

Results

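This account covers the cytosolic and mitochondrial heat shock proteins of the mouse kidney, their J-protein and BAG co-chaperones, and the transcription factors Hsf1 and Hsf2. Members were protein-coding rows of the count table whose symbol starts with Hspa, Hspb, Hsph, Dnaja, Dnajb, Dnajc or Bag and a number, together with Hspd1, Hspe1, Hsp90aa1, Hsp90ab1, Hsf1 and Hsf2. The endoplasmic reticulum chaperones Hspa5, Dnajb9, Dnajb11 and Dnajc3 were left out. This gave 74 of 42256 rows. Of the 74, 68 had enough counts to be tested. The 6 others were Dnajb8, Dnajb13, Dnajc5b, Dnajc5g, Hspb3 and Hspb9, and Dnajc5b and Dnajc5g had no count in any library. By their known location 8 members belong to the endoplasmic reticulum, against the name of the set, and they are described apart (Hspa13, Dnajb12, Dnajb14, Dnajc1, Dnajc10, Dnajc14, Dnajc16 and Dnajc18).

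RNA of kidney tissue from 4 mice labelled CDH11-/- and 3 labelled CDH11+/+ was sequenced. All were adult males on a mixed 129S1/Sv x C57BL/6 background. Every mouse, controls included, had 1 kidney removed and an implanted pump giving 800 ng/kg/min of angiotensin II. Tissue was taken 4 weeks after this surgery. All libraries are from injured mice, and the labels do not say what the CDH11 allele lacks. Total counts per library ranged from 72087906 to 84786351. Values are CPM, a gene's share of the counts scaled to a fixed total, on TMM-scaled library sizes, and adjusted p-values come from edgeR's quasi-likelihood test with Benjamini-Hochberg adjustment over 17964 genes, called under 0.05. Cdh11, the targeted gene, averaged 10.9 ± 0.907 CPM (SD, n = 4) in the libraries labelled CDH11-/- and 7.36 ± 3.16 CPM (SD, n = 3) in those labelled CDH11+/+ (log2 fold change 0.56, adjusted p = 0.14). Because this goes against the label, the groups are called knockout-labelled and wild-type-labelled, and each direction is between labels. Kidney markers were abundant in both groups. The summed level of 6 proximal tubule markers was 10867 to 12377 CPM in knockout-labelled libraries and 7127 to 8209.8 CPM in wild-type-labelled ones, with 4 of the 6 called higher and 0 lower. Markers of principal cells (3 of 3), intercalated cells (3 of 4) and podocytes (3 of 4) were called lower. Fewer were called lower for thick ascending limb (1 of 4), distal convoluted tubule (1 of 3) and endothelium (1 of 4), with 0 higher. Of fibroblast markers and of macrophage and leukocyte markers, 1 of 4 each was called higher and 0 lower.

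Heat shock proteins bind unfolded protein chains. HSP70 proteins hold exposed segments with help from J proteins, which deliver clients and trigger ATP hydrolysis, and from exchange factors (HSP110 and BAG proteins), which release the nucleotide. HSP90 proteins mature receptors and kinases, small heat shock proteins keep aggregates soluble, and Hspd1 with Hspe1 forms the folding chamber of the mitochondrial matrix. Hsf1, freed from chaperones when unfolded protein builds up, binds heat shock elements and raises the inducible members, which in kidney tubules respond to ischaemia and toxins.

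Several inducible cytosolic chaperones, such as Hspa1a, Hspb1 and Bag3, were lower in the knockout-labelled kidneys, and 5 of 8 mitochondrial members, Hspd1 and Hspe1 among them, were higher. Of the 68 tested members, 13 were called higher and 17 lower, and 38 were not called. The 17 include Hspa1l and Dnajb7, few-count members that reached the count filter in enough libraries only among the wild-type-labelled ones. Without them, 13 of 66 were higher and 15 lower, or 42.4% called, and 33 did not overlap. With them, members called in either direction made up 44.1%, where 29.7% of all tested genes and 32.8% of tested protein-coding genes were called. Calls higher took 16.8% and calls lower 12.9% of all tested genes. The 68 had a median log2 fold change of -0.042, beside -0.014 for all tested genes. The largest rise was a log2 fold change of 1.07, in Dnajc12, and the members not called lay between -0.39 and 0.41. For 35 members no value of one group lay within the range of the other, where this held for 38.5% of all tested genes and 41.7% of protein-coding ones. The number called lower was 10 without wild-type-labelled replicate 2.

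**Figure D1:**
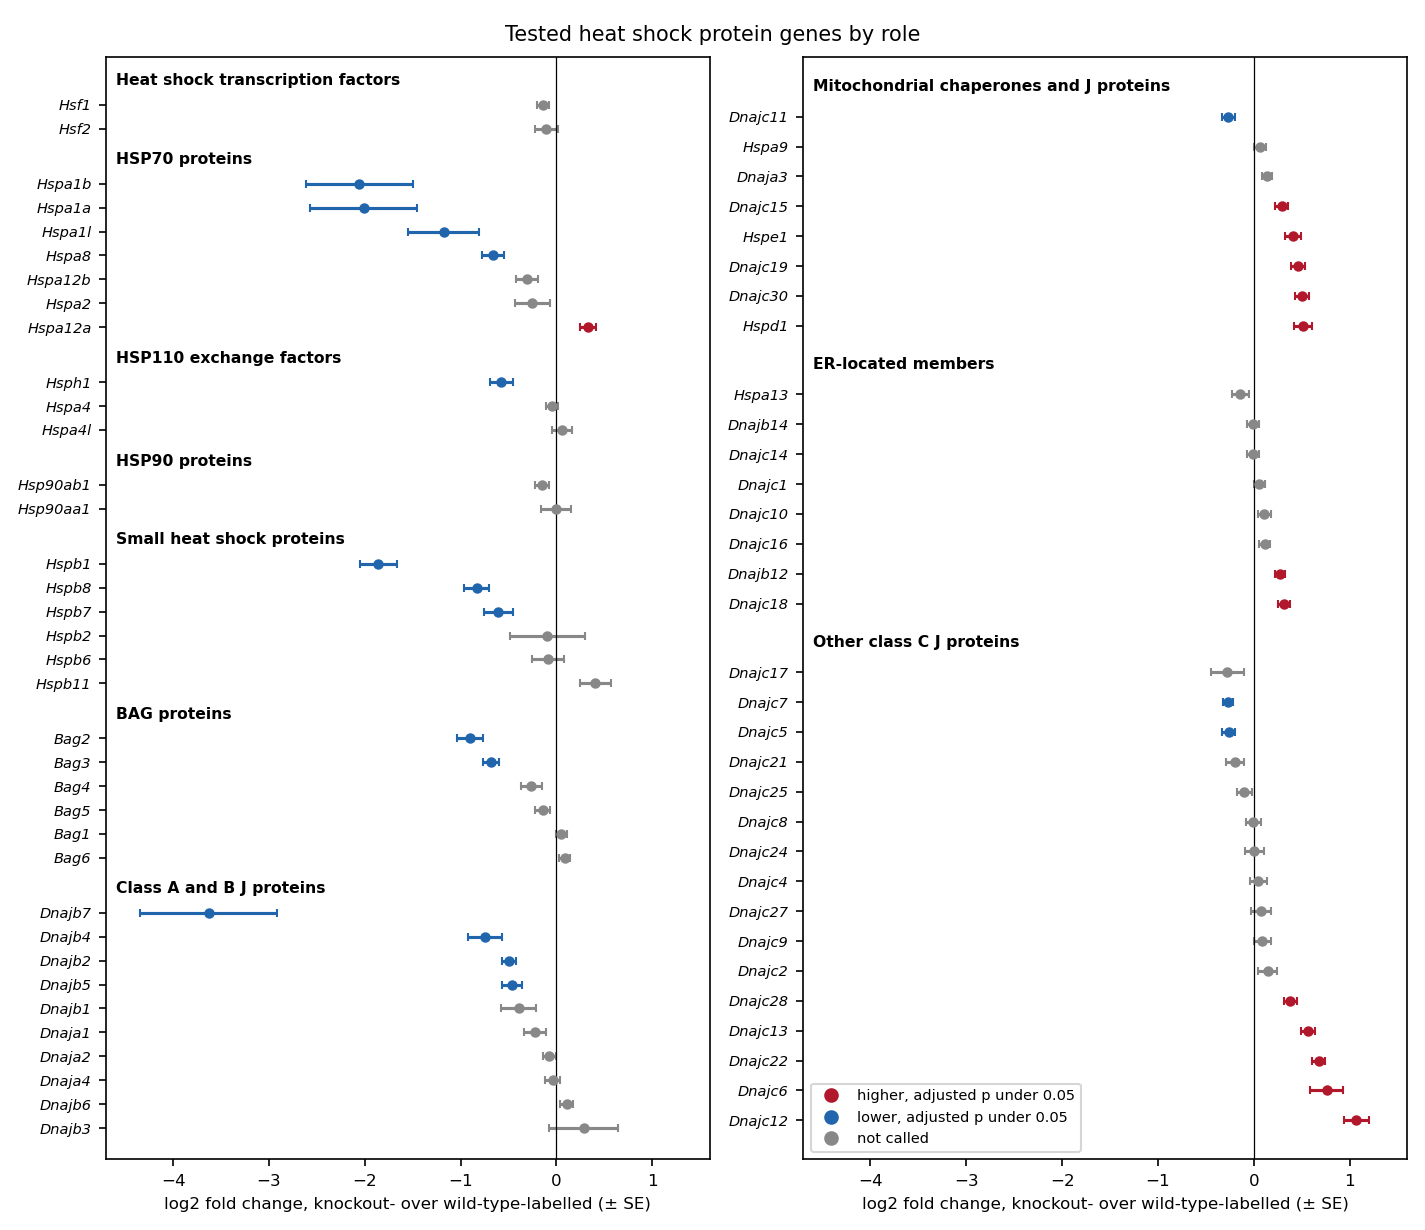
Log2 fold change of the knockout-labelled over the wild-type-labelled group (horizontal axis, with SE from edgeR) for the 68 tested members, grouped by role, with 13 called higher in red, 17 called lower in blue and 38 not called in grey. Blue points are 4 of 7 HSP70 proteins (3 of 6 without Hspa1l) and 3 of 6 small heat shock proteins, and red points are 5 of 8 mitochondrial members and 5 of 16 other class C J proteins.

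The inducible HSP70 genes Hspa1a and Hspa1b had the lowest ratios between groups among members above 1 CPM. Hspa1a (ENSMUSG00000091971, mm10 chr17:34969190-34972156, minus strand) had 25.8, 9.22, 13.1 and 46.9 CPM in the knockout-labelled libraries, against 107, 106 and 74.3 CPM in wild-type-labelled ones. Hspa1b (ENSMUSG00000090877, chr17:34956436-34959238, minus strand) had 33.0, 12.0, 17.2 and 61.0 CPM, against 143, 143 and 98.6 CPM. Every knockout-labelled library lay under every wild-type-labelled one, and the knockout-labelled group was widely spread, with replicate 4 the highest for both genes and replicate 2 the lowest. Hspa1a was 4.03-fold lower (log2 fold change -2.01, SE 0.56, adjusted p = 0.0393) and Hspa1b 4.16-fold lower (-2.06, SE 0.56, adjusted p = 0.0368). Both calls were lost on omitting any 1 wild-type-labelled library or replicate 1 or 3 labelled knockout, with no low-count filter and with 1 surrogate variable. The adjusted p then reached 0.117 for Hspa1a and 0.112 for Hspa1b, and the log2 fold change ranged from -2.58 to -1.76 and from -2.63 to -1.80 over all alternatives.

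These genes encode nearly the same protein, and the division of reads between them is uncertain. The ratio of Hspa1a to Hspa1b counts was 0.759 to 0.783 in knockout-labelled and 0.747 to 0.753 in wild-type-labelled libraries, close to constant while the levels moved. Their sum was 58.7, 21.2, 30.3 and 108 CPM in knockout-labelled libraries, against 249.9, 249 and 173 CPM in wild-type-labelled ones. The bases before the start of each are shown because the copies are alike there too, and those of Hspb1 because it fell with them. Sequences are from RefSeq on GRCm38.p6, 5′ to 3′, and capitals mark GAANNTTC, a pair of inverted GAA units from the heat shock element. The Hspa1a and Hspa1b stretches of 150 bases were identical at 149 positions.
Hspa1a, chr17:34972157-34972306, minus strand: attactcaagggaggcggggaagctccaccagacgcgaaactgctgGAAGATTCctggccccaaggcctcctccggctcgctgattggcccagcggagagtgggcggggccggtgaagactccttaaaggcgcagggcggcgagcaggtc
Hspa1b, chr17:34959239-34959388, minus strand: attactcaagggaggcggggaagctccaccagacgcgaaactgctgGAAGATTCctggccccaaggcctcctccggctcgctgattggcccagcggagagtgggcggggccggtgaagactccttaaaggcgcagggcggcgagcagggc
Hspb1, chr5:135887769-135887918, plus strand: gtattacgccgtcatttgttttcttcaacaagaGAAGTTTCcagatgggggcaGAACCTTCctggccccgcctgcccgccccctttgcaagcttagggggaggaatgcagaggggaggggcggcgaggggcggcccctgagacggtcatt

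Among other HSP70 proteins, the constitutive Hspa8 had the highest level per length and also fell. Hspa8, which folds new chains and uncoats clathrin, had 715, 543, 524 and 579.8 CPM in knockout-labelled libraries, against 879.9, 1019.5 and 907 CPM in wild-type-labelled ones. The groups did not overlap, and the difference was 1.58-fold lower (log2 fold change -0.66, SE 0.11, adjusted p = 0.00281). The summed Hspa1a and Hspa1b counts per Hspa8 count were 0.0390 to 0.186 in knockout-labelled and 0.191 to 0.284 in wild-type-labelled libraries. Thus the inducible pair was lower relative to Hspa8 in each knockout-labelled library, by a narrow margin in replicate 4. Hspa12a, an atypical family member, rose to 28.2 ± 1.51 CPM (SD, n = 4), against 22.5 ± 2.67 CPM (SD, n = 3), or 1.26-fold (adjusted p = 0.0201). Hspa1l, with 0.142 CPM in the knockout-labelled and 0.323 CPM in the wild-type-labelled group, was over the filter in 2 of 4 knockout-labelled and 3 of 3 wild-type-labelled libraries. Its call supports no direction, and its exons overlap the antisense gene Gm10501. Hspa2 and the endothelial Hspa12b were not called (log2 fold change -0.25 and -0.31).

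Hspb1 (mouse Hsp25, chr5:135887919-135889563, plus strand), a small heat shock protein that guards actin filaments, had the lowest adjusted p of the members that fell. It had 12.8, 7.39, 10.2 and 7.37 CPM in knockout-labelled libraries, against 36.8, 31.7 and 34.5 CPM in wild-type-labelled ones. The groups were far apart, and Hspb1 was 3.63-fold lower (log2 fold change -1.86, SE 0.19, adjusted p = 0.000437), a call kept under all 17 alternatives. Its processed pseudogene Hsp25-ps1 held 1.55 and 6.90 CPM in the knockout-labelled and wild-type-labelled groups, and the division of reads between them is uncertain. Hspb8, which works with Bag3 to clear damaged proteins by autophagy, had 5.17, 4.30, 4.36 and 5.68 CPM, against 9.03, 7.53 and 9.48 CPM in wild-type-labelled libraries. It too had no overlap and was 1.78-fold lower (adjusted p = 0.00184).

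Hspb7, best known from heart and muscle, had 4.67, 4.35, 3.63 and 4.62 CPM in knockout-labelled libraries, against 6.14, 8.07 and 5.51 CPM in wild-type-labelled ones, and was 1.52-fold lower (adjusted p = 0.0152, and 0.00135 to 0.0537 over the alternatives, the highest without wild-type-labelled replicate 2). Of the other small heat shock proteins, Hspb2, Hspb6 and Hspb11 were not called. Hspb11 is an intraflagellar transport protein despite its symbol. Markers of smooth muscle and pericytes were 1 of 6 lower and 0 higher, with a summed level of 175 to 230 CPM in knockout-labelled and 162 to 240.4 CPM in wild-type-labelled libraries. Skeletal muscle markers summed to 0.283 to 0.526 CPM in knockout-labelled and 0.281 to 0.543 CPM in wild-type-labelled libraries. Adipocyte markers summed to at most 0.496 CPM, with Adipoq at 0 throughout.

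**Figure D2:**
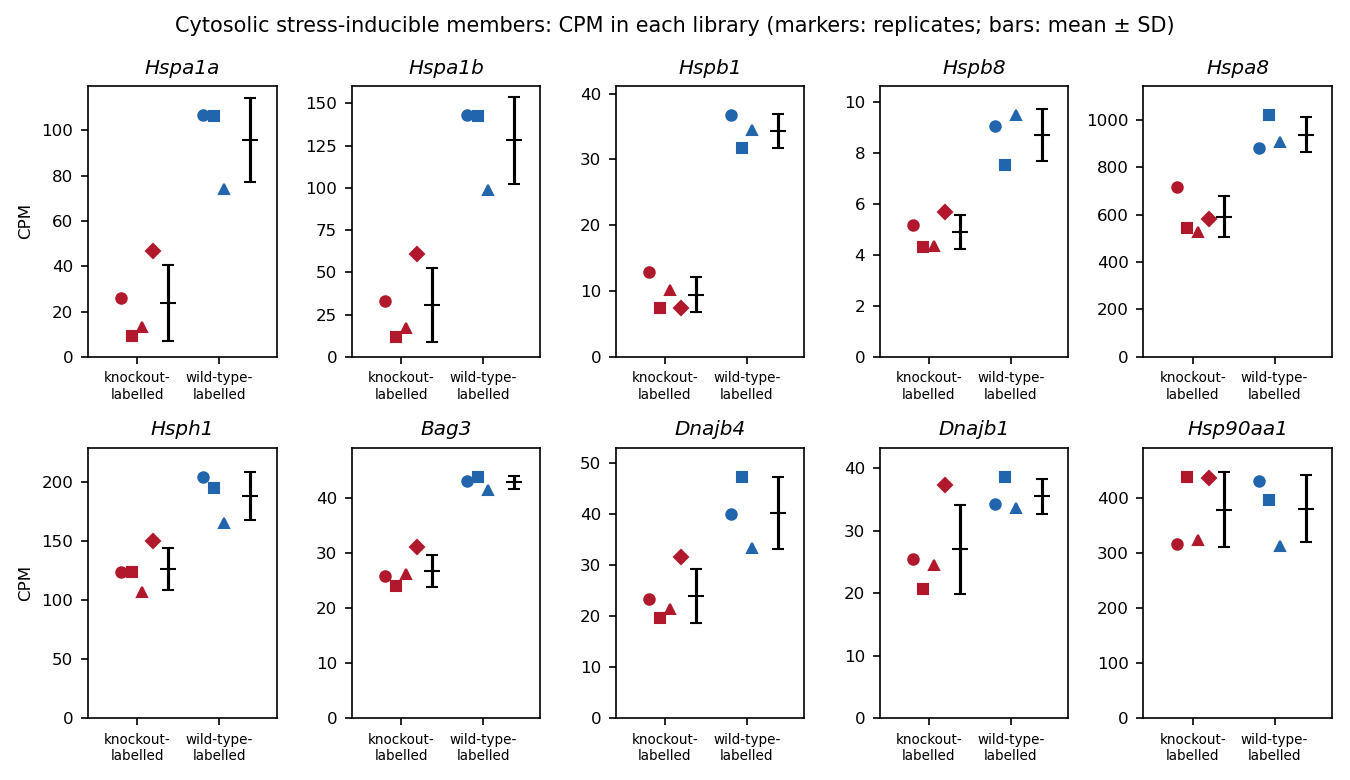
CPM in each library (vertical axes from 0) of 10 cytosolic members, with 4 knockout-labelled libraries in red left of 3 wild-type-labelled libraries in blue, replicate 1 as circle, 2 as square, 3 as triangle and 4 as diamond, and mean ± SD in black. Hspa1a to Dnajb4 show no overlap between groups, while Dnajb1 and Hsp90aa1 overlap.

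Of the HSP110 exchange factors, which release nucleotide from HSP70, only the inducible Hsph1 was called. It had 124, 123, 107 and 150.2 CPM in knockout-labelled libraries, against 204, 194 and 165 CPM in wild-type-labelled ones. The groups did not overlap, and Hsph1 was 1.49-fold lower (log2 fold change -0.57, SE 0.12, adjusted p = 0.00634). The constitutive Hspa4 had 140.0, 150.4, 136 and 144 CPM, against 155, 149 and 137 CPM, and Hspa4l had 56.3, 73.8, 61.9 and 71.5 CPM, against 65.8, 67.5 and 56.7 CPM. Hspa4 and Hspa4l overlapped between groups (log2 fold change -0.044 and 0.056, adjusted p = 0.647 and 0.719), and Hspa4l turned to -0.034 on the deposited normalized values.

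BAG proteins also act on HSP70, and 2 of 6 were called lower and 0 higher. Calls thus made up 33.3%, near the 29.7% of all tested genes and 32.8% of tested protein-coding genes. Bag3, a stress-induced scaffold that links HSP70 to Hspb8, had 25.8, 24.0, 26.2 and 31.0 CPM in knockout-labelled libraries, against 43.1, 43.9 and 41.5 CPM in wild-type-labelled ones. Bag2, an inhibitor of the chaperone-linked ubiquitin ligase CHIP, had 9.79, 9.11, 8.78 and 9.66 CPM, against 16.8, 21.7 and 13.8 CPM. Neither overlapped, and Bag3 was 1.6-fold (adjusted p = 0.000617) and Bag2 1.87-fold lower (adjusted p = 0.0016), calls kept under all alternatives. The most abundant per length, Bag1, had 95.5, 99.0, 101 and 100.1 CPM, against 97.5, 96.4 and 92.1 CPM, and Bag6, a tail-anchored protein chaperone, had 119, 108, 113 and 111 CPM, against 101, 106 and 111 CPM. Bag1 and Bag6 overlapped and were not called (adjusted p = 0.494 and 0.328), and Bag6 turned to -0.054 on the deposited normalized values. Bag4 and Bag5 were not called either.

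The HSP90 proteins did not pass the test. Hsp90ab1, the constitutive form and the highest member per length, had 846, 943, 855 and 951 CPM in knockout-labelled libraries, against 997, 1048 and 946 CPM in wild-type-labelled ones (log2 fold change -0.15, SE 0.077, adjusted p = 0.176). The inducible Hsp90aa1 had 315, 438, 323 and 435 CPM, against 430.4, 395 and 312 CPM (log2 fold change -0.0061, SE 0.16, adjusted p = 0.98). Both overlapped, and the sign of Hsp90aa1 turned in 5 of 17 alternatives. The transcription factors were not called either. Hsf1 had 26.2, 25.9, 27.8 and 26.6 CPM, against 29.4, 27.7 and 31.1 CPM (adjusted p = 0.117), and Hsf2 had 12.8, 14.3, 13.4 and 15.1 CPM, against 16.3, 16.6 and 12.0 CPM (adjusted p = 0.541). Transcript levels of Hsf1 do not show its activity, which is set on the protein.

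Class A and B J proteins, the general partners of cytosolic HSP70, had 3 of 9 tested members lower and 0 higher, leaving out Dnajb7. The share called, 33.3%, was near the 29.7% of all tested genes and 32.8% of tested protein-coding genes. Dnajb4, a stress-responsive partner, had 23.3, 19.7, 21.4 and 31.7 CPM in knockout-labelled libraries, against 40.1, 47.4 and 33.4 CPM in wild-type-labelled ones. It was 1.68-fold lower without overlap (adjusted p = 0.0159, and 0.0001 to 0.0527 over the alternatives, the highest without wild-type-labelled replicate 2). Dnajb1, the main stress-induced partner, had 25.4, 20.7, 24.5 and 37.3 CPM, against 34.3, 38.7 and 33.6 CPM. Replicate 4 alone reached the wild-type-labelled range, and Dnajb1 was not called (log2 fold change -0.39, adjusted p = 0.142). Without that library it was called (-0.59, adjusted p = 0.00374), and over all alternatives the adjusted p ran from 0.00374 to 0.309. Dnaja1, a stress-responsive class A member, had 168, 181, 144 and 188 CPM, against 220.2, 209.5 and 166 CPM. It overlapped and was not called (log2 fold change -0.22, adjusted p = 0.187), but was called without wild-type-labelled replicate 3 (-0.35, adjusted p = 0.0293, with a range of 0.0293 to 0.428 over the alternatives).

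Dnaja2, a constitutive class A member, had 75.6, 84.2, 77.1 and 75.0 CPM in knockout-labelled libraries, against 84.7, 86.3 and 75.4 CPM in wild-type-labelled ones, and was not called (adjusted p = 0.457). Dnajb2, a ubiquitin-binding J protein, was 1.41-fold and Dnajb5 1.38-fold lower (adjusted p = 0.00115 and 0.00884). Dnajb7 had 2, 0, 0 and 3 counts, against 16, 19 and 13 counts, so it passed the count filter only through the wild-type-labelled group and its call supports no direction.

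A list of 14 members that Hsf1 is known to raise under heat was examined across libraries. Of these, 7 were lower, 2 higher and 5 not called, and the median log2 fold change was -0.48. Calls made up 64.3%, beside 29.7% of all tested genes, but the list was chosen with earlier results of these data known. The 7 were Hspa1a, Hspa1b, Hspa8, Hsph1, Hspb1, Hspb8 and Bag3, and the 2 higher were the mitochondrial Hspd1 and Hspe1. Those not called were Dnajb1, Dnaja1, Hsp90aa1, Hsp90ab1 and Hspa4l. Knockout-labelled replicate 4 was the highest of its group for 9 of the 14, and wild-type-labelled replicate 3 the lowest of its group for 11. Over all 68 tested members, the former was highest for 25 and the latter lowest for 40. The number lower was 8 without knockout-labelled replicate 4 and 5 in 6 settings, namely the omission of replicate 1 or 3 labelled knockout or of replicate 1 or 2 labelled wild-type, no low-count filter, and 1 surrogate variable.

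Immediate-early genes, which like heat shock genes respond quickly to handling of tissue, were counted as well. Of 12, 5 were called lower, 0 higher and 7 not called. Calls made up 41.7%, beside 29.7% of all tested genes. Fos had 1.05, 0.964, 0.601 and 0.526 CPM in knockout-labelled libraries, against 4.08, 9.46 and 6.71 CPM in wild-type-labelled ones (8.59-fold lower, adjusted p = 0.000435). Atf3 was 6.69-fold, Egr1 3.66-fold and Fosb 3.62-fold lower (adjusted p = 0.000994, 0.0029 and 0.0226). The summed level of the 12 was 154, 107, 161 and 211 CPM in knockout-labelled replicates 1 to 4, against 208, 257 and 219 CPM in wild-type-labelled ones. That sum was highest in knockout-labelled replicate 4 and lowest in replicate 2, as were Hspa1a and Hspa1b. The largest parts of the sum in replicate 4 were Jun, Ier3 and Dusp1 at 60.0, 48.6 and 47.2 CPM, none of them called. Of the 5 genes called lower, Fos, Fosb, Junb and Egr1 were lowest among knockout-labelled libraries in replicate 4, and Atf3 in replicate 2. The part of handling in these falls was not tested.

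In the mitochondrial group 5 of 8 members rose and 1 fell, with a median log2 fold change of 0.35. Calls made up 75% of this group, beside 29.7% of all tested genes. Hspd1 (HSP60, chr1:55077835-55088243, minus strand) had 365, 437, 391 and 423 CPM in knockout-labelled libraries, against 298, 299 and 252 CPM in wild-type-labelled ones. Its lid Hspe1 (HSP10, chr1:55088132-55091307, plus strand) had 51.9, 56.6, 52.3 and 58.2 CPM, against 43.6, 44.3 and 35.9 CPM. The groups did not overlap for either, and Hspd1 was 1.43-fold (log2 fold change 0.51, SE 0.091, adjusted p = 0.00324) and Hspe1 1.33-fold higher (0.41, SE 0.085, adjusted p = 0.00696). These neighbours start back to back and their annotated exons overlap on opposite strands. The pseudogene Hspd1-ps3 held 14.7 CPM in the knockout-labelled and 12.7 CPM in the wild-type-labelled group.

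Hspa9 (mortalin), the matrix HSP70 that pulls proteins through the import channel, had 423, 443, 429 and 439 CPM in knockout-labelled libraries, against 409, 439 and 394 CPM in wild-type-labelled ones. It overlapped and was not called (log2 fold change 0.067, adjusted p = 0.472). The ratio of Hspd1 to Hspa9 counts was 0.863 to 0.987 in knockout-labelled and 0.640 to 0.730 in wild-type-labelled libraries, and the ratio of Hspd1 to Hspa8 counts was 0.510 to 0.805 and 0.278 to 0.339. Thus the matrix chaperonin was higher relative to both the mitochondrial and the cytosolic HSP70 in every knockout-labelled library.

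The J proteins of the mitochondrial membranes also changed. Dnajc30, of the inner membrane, had 22.9, 20.9, 22.8 and 20.6 CPM in knockout-labelled libraries, against 14.5, 15.1 and 16.5 CPM in wild-type-labelled ones, and was 1.42-fold higher without overlap (adjusted p = 0.0014). Its exons overlap those of Bud23 on the other strand. Dnajc19 and Dnajc15, J proteins of the import motor, rose 1.38-fold and 1.22-fold (adjusted p = 0.00239 and 0.0125), and Dnajc19 shares exon bases with Fxr1 on the other strand. Dnajc11, an outer membrane partner of the cristae complex, fell 1.20-fold (adjusted p = 0.0165), and Dnaja3 was not called (log2 fold change 0.14, adjusted p = 0.0843). The 5 rises stood at 5 under each of the 17 alternatives. Proximal tubule markers were higher in the same libraries. In bulk tissue more cells of a type and more RNA per cell cannot be told apart, and the part of cell make-up in these changes was not tested.

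**Figure D3:**
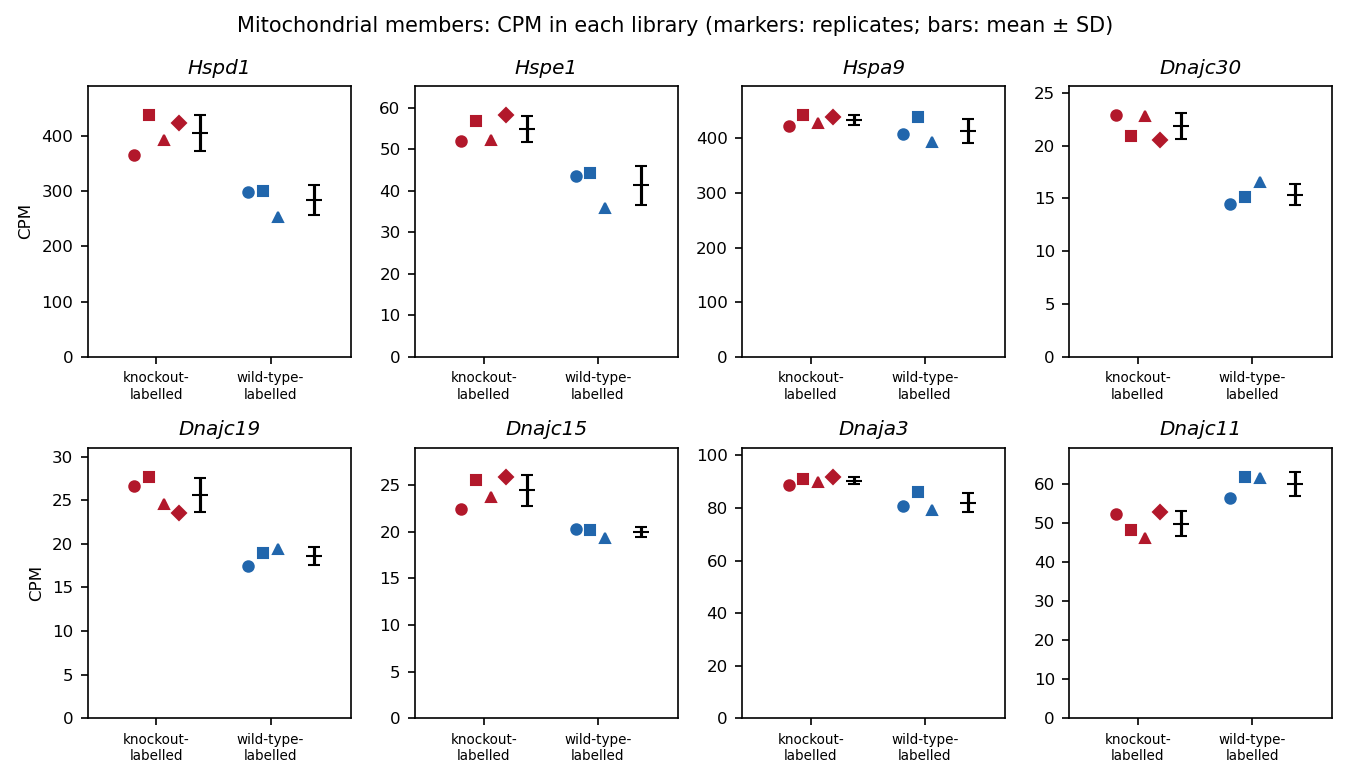
CPM in each library (vertical axes from 0) of the 8 mitochondrial members, with 4 knockout-labelled libraries in red left of 3 wild-type-labelled libraries in blue, marker shapes for replicates and mean ± SD in black. Hspd1, Hspe1, Dnajc30, Dnajc19 and Dnajc15 lie higher without overlap, Dnaja3 does so without being called, Hspa9 overlaps and Dnajc11 lies lower.

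The remaining class C J proteins had 5 of 16 tested members higher and 2 lower. That is 43.8% called, beside 29.7% of all tested genes and 32.8% of tested protein-coding genes. Dnajc12, a partner of the aromatic amino acid hydroxylases, had 78.1, 93.4, 105 and 70.7 CPM in knockout-labelled libraries, against 42.7, 41.5 and 39.8 CPM in wild-type-labelled ones. The groups were well apart, and the gene was 2.10-fold higher (log2 fold change 1.07, SE 0.13, adjusted p = 0.000622). Dnajc22, linked to endocytosis in Drosophila, had 57.8, 60.6, 55.2 and 55.7 CPM, against 32.4, 37.9 and 37.1 CPM, and was 1.6-fold higher (adjusted p = 0.000268).

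Endosomal members were among these rises. Dnajc13, which acts on early endosomes, had 226, 248, 217 and 232 CPM in knockout-labelled libraries, against 155, 167 and 145 CPM in wild-type-labelled ones (1.48-fold higher, adjusted p = 0.000736). Dnajc6 (auxilin), which uncoats clathrin vesicles with Hspa8, had 35.0, 38.3, 32.0 and 26.0 CPM, against 16.0, 17.8 and 24.3 CPM (1.69-fold higher, adjusted p = 0.0121). Neither overlapped, though knockout-labelled replicate 4 and wild-type-labelled replicate 3 came close for Dnajc6. Dnajc28 rose 1.30-fold (adjusted p = 0.0038). Dnajc5, a vesicle chaperone, and Dnajc7, which binds HSP70 and HSP90, fell 1.20-fold and 1.21-fold (adjusted p = 0.0221 and 0.00475). The other 9 tested members of this group were not called.

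Of the 8 members of the endoplasmic reticulum, 2 rose and 0 fell. That is 25% called, where 29.7% of all tested genes were called. Dnajb12, a membrane J protein of quality control, had 67.8, 68.3, 68.5 and 67.4 CPM in knockout-labelled libraries, against 54.1, 59.4 and 55.3 CPM in wild-type-labelled ones (1.21-fold higher, adjusted p = 0.00574). Dnajc18 rose 1.24-fold (adjusted p = 0.00744). Dnajc10, a disulfide reductase, had 37.5, 42.0, 40.0 and 43.8 CPM, against 38.7, 39.1 and 35.8 CPM, and was not called (adjusted p = 0.268). The rest of the 8 were not called either. Of the luminal chaperones outside the set, Hspa5 was 1.92-fold and Dnajb9 1.90-fold lower (adjusted p = 0.000495 and 0.00184). Dnajb11 and Dnajc3 were not called, at log2 fold changes of -0.17 and -0.074 (adjusted p = 0.17 and 0.592).

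Levels can be compared between genes only per length, here as mean CPM per kilobase of merged exons. Hsp90ab1 stood highest at 299.7 in the knockout-labelled and 332 in the wild-type-labelled group. Hspd1 followed at 153 in the knockout-labelled group, ahead of Hspa8 at 137, whereas in the wild-type-labelled group Hspa8 at 218 stood ahead of Hspd1 at 107. Hspa9 and Hsp90aa1 lay at 101 and 96.1 in the knockout-labelled group and at 96.0 and 96.5 in the wild-type-labelled group. Hspa1a and Hspb1 stood at 8.01 and 9.17, against 32.3 and 33.3, and Hsf1 and Hsf2 at 3.75 and 1.45, against 4.14 and 1.56. Merged exons can be longer than the transcript in use, so these levels are approximate.

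**Figure D4:**
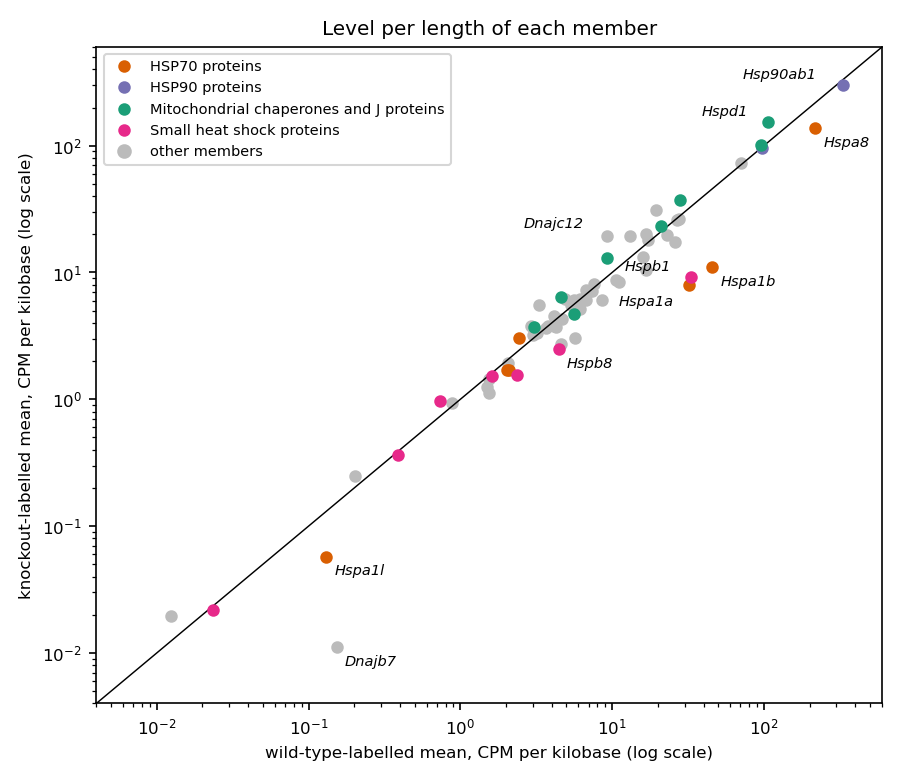
Mean CPM per kilobase of merged exons in the knockout-labelled group (vertical, log scale) against the wild-type-labelled group (horizontal, log scale) for each member with a count in both groups, with the line of equal level. Hspa1a, Hspa1b, Hspb1 and Hspa8 lie under the line, Hspd1 and Dnajc12 above it, and Hsp90ab1 near it at the top.

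Promoter windows from RefSeq, 250 bases before to 50 after the start, were found for 58 of the 74 members. The pair GAANNTTC was in windows of 15 of the 58 (25.9%) and in 8.39% of 16308 protein-coding genes. The pair TTCNNGAA was in 6 (10.3%, against 8.68%), and 3 units in a row, GAANNTTCNNGAA on either strand, which contain both pairs, were in 4 (6.9%, against 0.552%). Those 4 were Dnajb6, Hspd1, Hspe1 and Hsph1. Of them Hsph1 fell, Hspd1 and Hspe1 rose and Dnajb6 was not called. The Hsph1 match lies after the start, while Hspd1 and Hspe1 share a match that lies before both RefSeq starts. For Hsph1, Hspd1 and Hspe1 alike, all 30 bases shown lie in annotated exon sequence. The GAANNTTC pair was in 9 of 11 windowed genes of the Hsf1 list, which was picked for response to Hsf1. The 9 are not independent, as they include the near-identical Hspa1a and Hspa1b and the shared site of Hspd1 and Hspe1. Stretches of 30 bases are shown for members that fell and for the Hspd1 and Hspe1 pair that rose, with capitals for each match. The Bag3 and Hspb8 matches also lie after the start, and the Dnajb4 match lies before it. The Hspd1 and Hspe1 stretch is 1 site read on both strands.
Hsph1, chr5:149636280-149636309, minus strand: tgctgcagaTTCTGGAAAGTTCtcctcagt
Hspb8, chr5:116422844-116422873, minus strand: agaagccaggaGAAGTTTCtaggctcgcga
Bag3, chr7:128523603-128523632, plus strand: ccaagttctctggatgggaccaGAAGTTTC
Dnajb4, chr3:152193841-152193870, minus strand: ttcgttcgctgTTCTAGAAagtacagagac
Hspd1, chr1:55088053-55088082, minus strand: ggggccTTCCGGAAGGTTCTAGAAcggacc
Hspe1, chr1:55088053-55088082, plus strand: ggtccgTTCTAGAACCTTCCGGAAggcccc

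Partner genes outside the set were counted in lists chosen with earlier results of these data known. Of 14 mitochondrial import and protease partners, 5 rose and 0 fell, with a median log2 fold change of 0.16. Clpx, the unfoldase of the ClpXP protease, had 65.6, 98.6, 104 and 116 CPM in knockout-labelled libraries, against 49.4, 51.8 and 51.5 CPM in wild-type-labelled ones (1.89-fold higher, adjusted p = 0.00605). Grpel2, one of the GrpE exchange factors of Hspa9, was higher by 0.59 on the log2 scale (adjusted p = 0.000789). The other, Grpel1, named after its values were seen, averaged 50.3 CPM in the knockout-labelled and 46.1 CPM in the wild-type-labelled group and was not called (log2 fold change 0.13, adjusted p = 0.187). The proteases Spg7 and Lonp1 were 1.28-fold and 1.20-fold higher (adjusted p = 0.00375 and 0.00799). All 14 had fitted changes above 0, where this held for 8740 of 17964 tested genes. The 14 were measured in the same libraries and are not replicates of a direction, so this count is a description only. Of the 14, 9 were not called, with Pam16 at 0.0039 and Afg3l2 at 0.010 on the log2 scale. The list was 35.7% called, beside 29.7% of all tested genes.

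Cytosolic co-chaperones had 4 of 18 lower and 2 higher, with a median of -0.06. That is 33.3% called, near the 29.7% of all tested genes and 32.8% of tested protein-coding genes. Stip1, which bridges HSP70 and HSP90, was 1.33-fold, Chordc1 1.35-fold and the HSP90 partner Ptges3 1.28-fold lower (adjusted p = 0.000951, 0.0228 and 0.0274), while Fkbp8 was 1.15-fold higher (adjusted p = 0.0258). Fkbp5, a steroid-receptor co-chaperone named after its values were seen, was 1.38-fold higher without overlap, at 152 CPM in the knockout-labelled and 110.2 CPM in the wild-type-labelled group (adjusted p = 0.0474). In the cytosolic chaperonin and prefoldin list 1 of 14 rose and 0 fell (Pfdn1, 1.26-fold, adjusted p = 0.00459). That is 7.14% called, under the 29.7% of all tested genes. Of Hsf4, Hsf5, Hsbp1 and Hikeshi, Hsbp1, which binds Hsf1, was called (1.18-fold higher, adjusted p = 0.00867).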

How the data were processed

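Kidney RNA libraries of 4 mice labelled CDH11-/- and 3 labelled CDH11+/+ were made with a NEBNext Ultra II Directional kit, per the labels' protocols. The authors deposited expected counts, which estimate each gene's reads and are whole numbers here. DRAGEN, DESeq2 and mm10 are named, per the submitters' processing notes. Annotation release, strand setting and filters are not given in the sources used here. A second deposited table holds normalized signal, which differs from the counts by gene-specific factors of unstated origin and was used only as an alternative. Symbols, types and exon lengths came from GENCODE M21 (mm10).

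Genes were filtered with filterByExpr (17964 kept), scaled by TMM and tested with edgeR 4.0.16 (R 4.3.3), 2-sided, with robust estimation and no covariates. The biological coefficient of variation was 15.2%. In simulated counts for this comparison, 200 of 17727 genes were changed. Of genes changed by 0.5, 1 and 2 on the log2 scale, 34.3%, 92.5% and 95.5% were recovered, and 7.5% of calls were false. No pair of the 21 library pairs agreed within counting noise (median chi-square 2.69 to 12.8), so all were kept. Replicate numbers follow accession order and pair nothing.

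The 74 members and all lists were chosen with earlier results of these data known. Members named with values were those called whose mean reached 1 CPM and log2 change 0.5 in size, the 2 highest per length in each role group, Hsf1, Hsf2 and the Hsf1 list; other called members are named by fold. Alternatives used DESeq2 1.42.0, limma 3.58.1 (log2 of the normalized value plus 1), sva 3.50.0, other scalings, filters and gene sets, and the omission of each library. Figures used Python 3.11.15 and matplotlib 3.10.9.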

Additional observations from a re-analysis of the deposited data

Results flagged for a closer look

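Dnajc2, a ribosome-associated J protein, had 22.1, 25.2, 22.2 and 21.8 CPM in the knockout-labelled libraries, against 22.0, 22.3 and 17.7 CPM in wild-type-labelled ones. Knockout-labelled replicate 2 stood apart from the other 3, with a gap of 0.892 of the group's range, above the limit for 4 samples. It was the only such gap among 68 tested members, and chance gives about 1 in 20.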

How the results depend on the processing

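Over 17 alternatives, 500 results for named members kept their direction and side of the threshold, 16 lost the call, 2 gained it and 9 turned sign. Members called lower ranged from 10 to 18 when each library was left out, with 10 without wild-type-labelled replicate 2, and members called higher from 12 to 13. Genes called ranged from 3804 to 5300 without each library, against 5327 with all. On the deposited normalized values (limma-trend), Bag6 stood at -0.054, Hsp90aa1 at 0.052 and Hspa4l at -0.034 on the log2 scale. Leaving out 1 library moved Hsp90aa1 between -0.14 and 0.084 and Hspa4l between -0.027 and 0.13. The cause was not tested. No paired analysis was possible because the labels give no replicate number shared between the groups. With 4 and 3 libraries, small changes can be missed. In simulated counts with 200 genes changed, 34.3% of changes of 0.5 on the log2 scale were recovered. Because 5327 genes were called in the data, which eases the adjustment of p-values, that share does not carry over to these calls.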
